A study of Arabidopsis thaliana with 18 samples.

Results

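The wrky14-labelled line was a T-DNA insertion line of Arabidopsis thaliana, named for the transcription factor gene WRKY14 (AT1G30650), and it was set against Col-0, the wild-type accession, in germinating seed at 24 h SL. The name 24 h SL stands for 48 h of dark stratification at 4 °C followed by 24 h of continuous light at 22 °C. The comparison was chosen by genotype label and took 2 wrky14-labelled libraries and 2 Col-0 libraries, 4 of the 18 libraries in the series. The other 14 libraries came from 7 further T-DNA lines, labelled athb15, athb25, hat2, lmi1, obp1, smb and vnd2, with 2 libraries each. Several plants contributed to the seed of a genotype, per the study's methods, and the labels give no other allele or treatment for either group. Genome resequencing in the study found a single T-DNA insertion in each line, at the predicted position. Deletions or translocations may have escaped it, per the paper. A single insertion line represented the genotype, so an effect of the insertion in WRKY14 and of any other change carried by that line cannot be told apart. Whether each duplicate had its own seed pool is not stated, so p-values measure only the spread between these libraries, which may be technical.

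WRKY proteins are plant transcription factors whose WRKY domain, with its zinc finger, binds the W-box, a short DNA element around the core TTGAC. WRKY14 belongs to group IIe of the family, and WRKY genes as a whole are best known from defence, stress responses and, in seeds, from abscisic acid signalling and germination. Around germination the embryo leaves the seed coat and endosperm, draws on stored oil and protein, loosens its cell walls and begins to green. Radicles had emerged by 24 h SL in the paper's separate time course. In the batch with the T-DNA lines, the paper reported later germination of wrky14 than of Col-0. Many Col-0 seeds of that batch had no extruded radicle at a scoring later than 24 h SL. Whether both groups were at the same stage at 24 h SL was not tested here.

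The 2 wrky14-labelled libraries held 33111743 and 24911505 counts and the 2 Col-0 libraries 20692809 and 26112879, within the 18146206 to 33111743 of all 18. No replicate pair was a library deposited again, since the counts of replicates differed by at least 2.23 times the sampling variance. Marker lists pointed to the labelled tissue. ICL, the isocitrate lyase that turns stored oil towards sugar, had 28692 and 27507 CPM (counts scaled to a common library size) in wrky14-labelled seed, against 27182 and 26338 CPM in Col-0. The summed level of 4 endosperm genes was 6784 and 6448 CPM in wrky14-labelled seed, against 6794 and 5551 CPM in Col-0, and that of 4 embryo epidermis genes was 1211 and 1146 CPM, against 1367 and 1312 CPM. Of 8 root hair genes, EXPA7, EXPA18, PRP1 and SHV2 had 0 counts in all 4 libraries, only 1 passed the count filter, and the summed level of the 8 was 16.9 CPM or less in each of the 4. Of 17 marker genes tested for root cap, root hair, root stem cell niche and stele, embryo epidermis and endosperm, 0 were called by edgeR's quasi-likelihood test or by DESeq2. An unadjusted p under 0.05 in edgeR was reached by 2 of them and by 2995 of all 19100 tested genes. Summed root cap levels were 38.1 and 33.8 CPM in wrky14-labelled seed, against 33.0 and 34.9 CPM in Col-0, and those of the root stem cell niche and stele were 104 and 96.8 CPM, against 106 and 109 CPM. Levels here are per seed RNA, so fewer cells of a type and less RNA per cell cannot be told apart.

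WRKY14 itself went against the label. The gene lies on chromosome 1 at chr1:10868218-10871297 of TAIR10, on the plus strand, and does not overlap another annotated gene. The libraries labelled wrky14 held 313 and 277 of its counts, or 9.58 and 11.2 CPM, against 6 and 9 counts in Col-0, or 0.287 and 0.341 CPM. The other 14 libraries held 0.0515 to 0.382 CPM, the range in which Col-0 also sat, and both libraries labelled wrky14 were far above all 16 others. The fitted log2 fold change of WRKY14 was 5.01 ± 0.27 (± SE throughout, 2 libraries per genotype), which is 32.2-fold, with an adjusted p of 3.38e-09 in edgeR's quasi-likelihood test with Benjamini-Hochberg adjustment. The fitted value stayed between 4.91 and 5.15 when each of the 4 libraries was left out in turn. Counts per gene do not show which exons the reads came from, and where the T-DNA sits within the gene is not given in the sources used here. Whether the transcript was complete was not tested, so no difference below is read as a loss of WRKY14 function, nor as a gain of it.

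**Figure D1:**
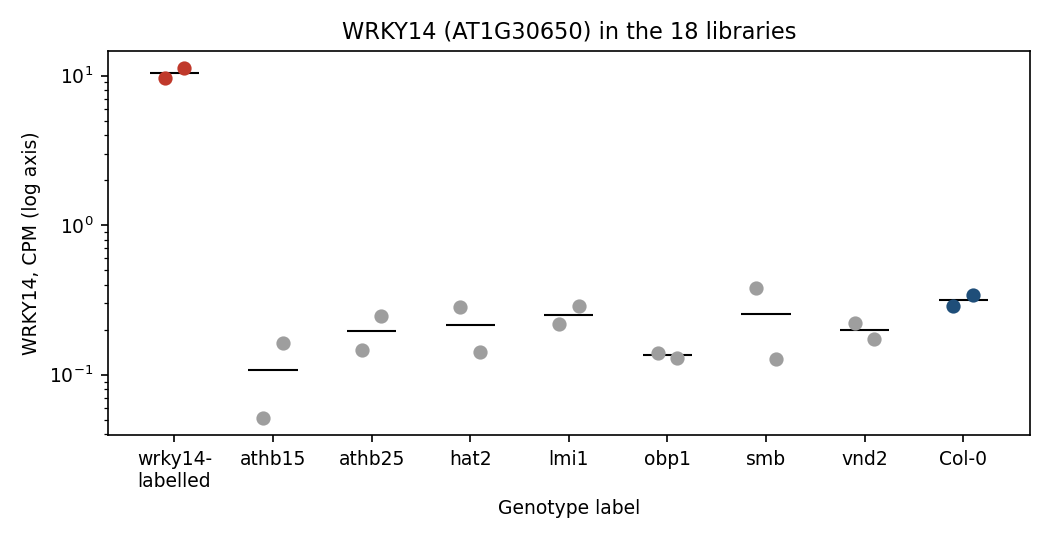
WRKY14 level in CPM on a log axis in each of the 18 libraries, by genotype label, with points for libraries and a line at the mean of the 2 libraries. The libraries labelled wrky14 stand at 9.58 and 11.2 CPM, and every other library, Col-0 included, is at 0.382 CPM or lower.

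The genes around WRKY14 showed no called change. Of the 20 tested genes within 10 places of it on either side, 0 were called by edgeR's quasi-likelihood test or by DESeq2. In edgeR 4 had an unadjusted p under 0.05, as did 2995 of all 19100 tested genes. Fitted values of the 20 neighbours ran from -3.60 to 0.81 on the log2 scale. The strongest of these neighbours were adjoining berberine bridge enzyme-like oxidoreductase genes, named here after their values were seen. AT1G30720 had 3 and 0 counts in the wrky14-labelled libraries, against 22 and 10 in Col-0 (adjusted p = 0.0109), and was called only without Col-0 replicate 2. AT1G30700 had 30 and 8 counts, against 38 and 61 (adjusted p = 0.0169). Both genes were low in every library, and the nearest tested gene downstream of WRKY14, AT1G30660, had 1.13 and 1.01 CPM in wrky14-labelled seed, against 0.525 and 0.682 CPM in Col-0 (adjusted p = 0.286).

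**Figure D2:**
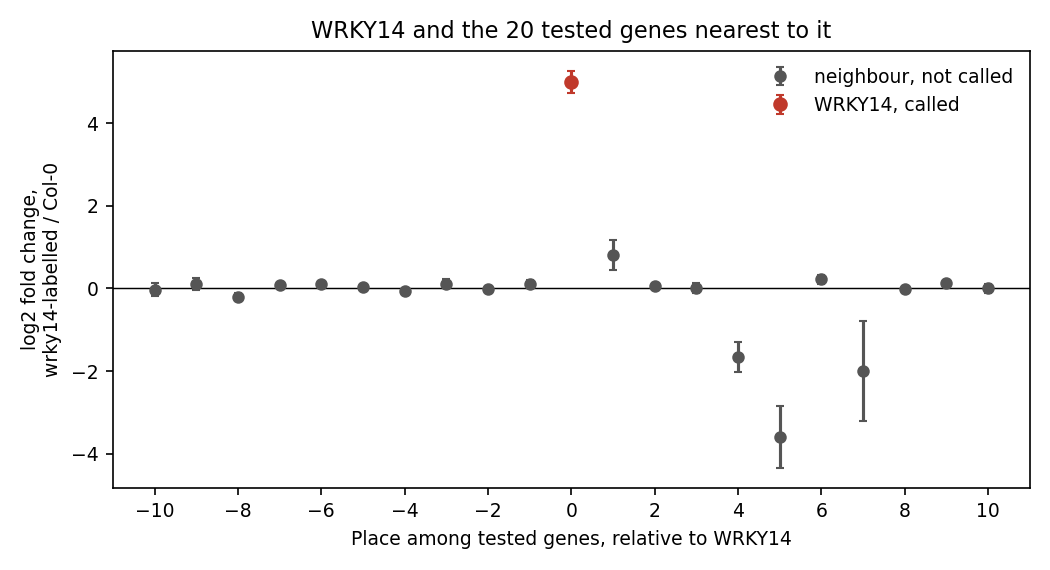
Fitted log2 fold change of WRKY14 and of the 20 tested genes nearest to it, wrky14-labelled over Col-0, by place along chromosome 1, with bars of 1 SE. WRKY14 stands at 5.01, and its neighbours lie between -3.60 and 0.81 with none called.

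Because WRKY factors bind the W-box, the 250 bases before each gene's start were read from the TAIR10.1 genome and searched on both strands for TTGACC or TTGACT, and separately for CACGTG, the G-box, whose matches can share at most 1 base with a W-box match. A W-box match stood before 59 of the 174 genes called lower in the wrky14-labelled line (33.9%), before 11 of the 47 called higher (23.4%) and before 5205 of 19028 tested genes with such a window (27.4%). For the G-box the shares were 6.32% of the lower genes, 12.8% of the higher genes and 7.70% of all tested genes. A match is a description of these letters and not a bound site. WRKY14's own 250 bases held no W-box match. The windows of 3 called genes with several matches are shown with it, since they span a lowered peroxidase gene, a lowered WRKY gene and a raised sulfur-response gene. All read 5′ to 3′ along the gene's strand and end at the base before its start, with W-box matches in capitals.
WRKY14, chr1:10867968-10868217, plus strand: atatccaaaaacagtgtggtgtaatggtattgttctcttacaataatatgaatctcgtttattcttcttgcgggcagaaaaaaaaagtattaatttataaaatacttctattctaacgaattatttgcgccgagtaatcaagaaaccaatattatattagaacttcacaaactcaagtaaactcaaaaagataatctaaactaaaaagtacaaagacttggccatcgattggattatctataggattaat
AT5G64120, chr5:25661008-25661257, minus strand: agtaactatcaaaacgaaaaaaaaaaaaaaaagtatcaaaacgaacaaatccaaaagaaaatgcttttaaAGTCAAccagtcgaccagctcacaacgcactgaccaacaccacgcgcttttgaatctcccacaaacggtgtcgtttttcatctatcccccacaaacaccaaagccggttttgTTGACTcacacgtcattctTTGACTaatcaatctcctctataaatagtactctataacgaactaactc
WRKY33, chr2:16107985-16108234, plus strand: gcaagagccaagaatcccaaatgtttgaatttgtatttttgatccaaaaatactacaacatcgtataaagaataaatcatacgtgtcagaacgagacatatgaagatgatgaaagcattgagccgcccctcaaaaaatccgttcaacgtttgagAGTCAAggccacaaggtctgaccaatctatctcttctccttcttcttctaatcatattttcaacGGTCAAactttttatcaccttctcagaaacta
ATSDI1, chr5:19807854-19808103, minus strand: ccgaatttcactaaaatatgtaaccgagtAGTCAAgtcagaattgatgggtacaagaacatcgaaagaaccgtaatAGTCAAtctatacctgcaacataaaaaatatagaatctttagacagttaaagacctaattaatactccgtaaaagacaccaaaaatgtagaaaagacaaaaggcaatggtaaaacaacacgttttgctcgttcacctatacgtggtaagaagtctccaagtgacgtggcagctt

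The matches before AT5G64120 began 180, 68 and 49 bases before the gene start, those before WRKY33 96 and 32 bases, and those before ATSDI1 221 and 174 bases. The same element thus stood before genes that were lower and genes that were higher in the wrky14-labelled line.

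Across the 19100 genes tested, 221 were called at an adjusted p under 0.01, which is 1.16% of them, and falls outnumbered rises. In the wrky14-labelled line 47 genes (0.246% of those tested) were higher and 174 (0.911%) were lower than in Col-0, while over all tested genes 50.2% had a fitted value above 0 and the median was 0.00. Of the called genes, 24 rises and 71 falls were at least 1 on the log2 scale. They comprised 215 protein-coding genes, 5 pseudogenes and 1 non-coding RNA, spread over the 5 chromosomes in shares of 0.966% to 1.40% of the tested genes of each. Each arm had only 2 libraries, and the count fell to 79 or 58 without wrky14 replicate 1 or 2, and to 73 or 66 without Col-0 replicate 1 or 2, with falls still in the majority in each of these fits. With no count filter 780 genes were called, 284 of them higher. That fit took each gene's spread from the trend over genes alone (prior degrees of freedom infinite, against 9.57 in the main fit). Its count is therefore not that of the same test on more genes.

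**Figure D3:**
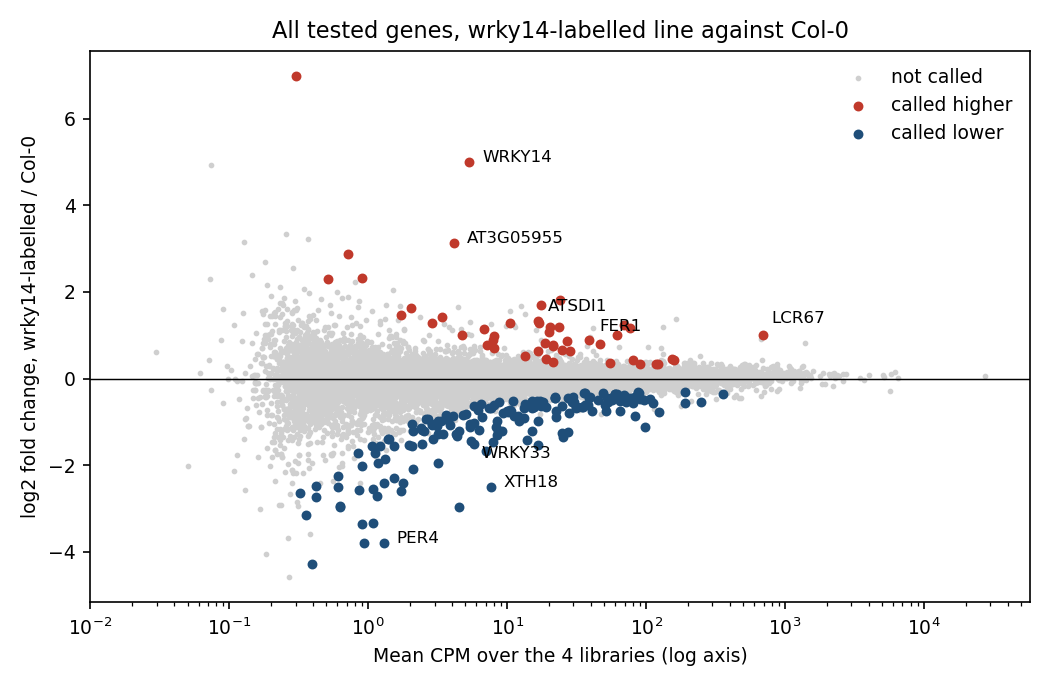
Fitted log2 fold change, wrky14-labelled over Col-0, against the mean CPM of the 4 libraries on a log axis, 1 point per tested gene. Genes called higher (47) are red and genes called lower (174) are blue. WRKY14 at 5.01 and AT3G05955 at 3.13 stand well above other genes of their level, and the red point above WRKY14 is AT4G09455, a pseudogene with 0 counts in both Col-0 libraries.

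Both wrky14-labelled libraries lay on one side of both Col-0 libraries for all 221 called genes, where 45.5% of tested genes did so. Against the whole series, both wrky14-labelled libraries were outside the range of all 16 others for 15 called genes, or 6.79%, where 1.67% of tested genes were. Both Col-0 libraries were outside the range of the other 16 for 65 called genes, or 29.4%, where 3.96% of tested genes were. Calling a gene in this contrast favours separation of either side, so these shares are descriptions. Both wrky14-labelled libraries were within the range of the 14 libraries of other lines for 170 called genes (76.9%), as they were for 79.0% of all tested genes.

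The largest falls included several genes for the cell wall and its peroxidases. XTH genes encode enzymes that cut and rejoin xyloglucan, the polymer that ties cellulose fibrils together. XTH18 had 2.63 and 1.85 CPM in wrky14-labelled seed, against 14.7 and 11.3 CPM in Col-0 (log2 fold change -2.50 ± 0.22, adjusted p = 5.23e-06). XTH24 had 0.398 and 0.605 CPM, against 2.63 and 3.26 CPM (-2.59 ± 0.26, adjusted p = 1.86e-05). In both genes the Col-0 libraries were also above all 14 libraries of the other lines, which reached 10.5 CPM for XTH18 and 2.33 CPM for XTH24. XTH17, which is close in sequence to XTH18, had 0.459 and 0.685 CPM in wrky14-labelled seed, against 3.06 and 2.88 CPM in Col-0 (-2.40 ± 0.41, adjusted p = 0.00224). XTR6 had 0.612 and 0.403 CPM, against 2.63 and 2.50 CPM (-2.29 ± 0.38, adjusted p = 0.00179), and its Col-0 libraries were above the other lines, which reached 2.48 CPM. How reads were split between such close relatives is uncertain. Separation of the wrky14-labelled and Col-0 libraries was part of how the genes with the largest changes were chosen.

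Class III peroxidases are secreted enzymes that cross-link or loosen wall polymers with hydrogen peroxide. AT5G64120, a wall-bound member, had 1.35 and 0.605 CPM in wrky14-labelled seed, against 7.74 and 8.30 CPM in Col-0 (-2.97 ± 0.34, adjusted p = 6.51e-05). PER4 had 0.214 and 0.121 CPM, against 2.15 and 2.73 CPM (-3.79 ± 0.45, adjusted p = 7.99e-05). Both peroxidase genes were low in wrky14-labelled seed but within or close to the other lines, whose lowest libraries had 0.764 and 0.127 CPM. The wrky14-labelled levels of PER4 rest on 7 and 3 counts. GPAT3, an acyltransferase of glycerolipid synthesis, had 9 and 2 counts in wrky14-labelled libraries, against 46 and 47 in Col-0 (-3.34 ± 0.42, adjusted p = 1.28e-04). GAD, a glutamate decarboxylase that makes GABA, fell by 2.70 (± 0.50, adjusted p = 0.00448), and sks9, a multicopper oxidase-like gene related to the root growth gene SKU5, by 2.56 (± 0.40, adjusted p = 0.00119). AT1G73050, a GMC oxidoreductase gene, had 0.612 and 1.01 CPM in wrky14-labelled seed, against 4.01 and 2.80 CPM in Col-0 (-2.09 ± 0.30, adjusted p = 6.22e-04). For AT5G64120, PER4, GPAT3 and AT1G73050 both Col-0 libraries were above the other lines, which reached 5.53, 1.67, 1.76 and 2.15 CPM.

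Among genes that averaged 1 CPM or more, the rises were led, after WRKY14, by a non-coding RNA. AT3G05955, annotated only as a non-coding RNA, had 6.95 and 7.98 CPM in wrky14-labelled seed, against 0.955 and 0.758 CPM in Col-0 (3.13 ± 0.23, adjusted p = 3.19e-07). The other 14 libraries ran from 0.348 to 4.91 CPM, so both wrky14-labelled libraries were the highest of the 18. SADHU5-1, a non-coding retrotransposon copy, had 2.60 and 3.59 CPM, against 1.00 and 0.985 CPM (1.62 ± 0.23, adjusted p = 5.54e-04), again above all other libraries, which reached 2.31 CPM. AT1G15560, annotated as a pseudogene, was 3.92 and 4.19 CPM in wrky14-labelled seed, against 1.81 and 1.52 CPM in Col-0 (1.29 ± 0.20, adjusted p = 0.00120). Here the wrky14-labelled libraries were the highest and the Col-0 libraries the lowest of the 18.

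Other rises included LEA genes, whose products protect the dry seed. NSP2 encodes a nitrile-specifier protein, which steers the breakdown of glucosinolates towards nitriles, and had 38.9 and 35.4 CPM in wrky14-labelled seed, against 13.9 and 7.58 CPM in Col-0 (1.82 ± 0.36, adjusted p = 0.00696). ATECP31, a late embryogenesis abundant (LEA) gene, had 30.9 and 21.9 CPM, against 11.2 and 5.61 CPM (1.70 ± 0.34, adjusted p = 0.00797). M17 and M10, also LEA genes, rose by 1.23 ± 0.21 (adjusted p = 0.00215) and 1.28 ± 0.24 (adjusted p = 0.00469). The other lines spanned a wide range, from 4.99 to 138 CPM for NSP2, from 2.62 to 121 CPM for ATECP31 and from 29.0 to 409 CPM for M17. MLP31, a major latex protein-like gene, had 15.2 and 14.2 CPM in wrky14-labelled seed, against 7.35 and 4.96 CPM in Col-0 (1.28 ± 0.19, adjusted p = 9.93e-04). AT1G52560, a small heat shock-type chaperone gene, had 2.42 and 2.62 CPM, against 1.05 and 0.796 CPM (1.46 ± 0.23, adjusted p = 0.00116).

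Several sulfur genes also rose. ATSDI1, which is induced by sulfur shortage and restrains glucosinolate synthesis, had 25.0 and 22.5 CPM in wrky14-labelled seed, against 9.22 and 9.81 CPM in Col-0 (1.32 ± 0.13, adjusted p = 1.08e-05). LSU3, a small protein gene named for its response to low sulfur, had 4.90 and 4.92 CPM, against 2.34 and 1.44 CPM (1.41 ± 0.19, adjusted p = 2.83e-04). APS1, the ATP sulfurylase that takes the first step of sulfate assimilation and one of the 6 most abundant called genes, had 181 and 182 CPM, against 134 and 134 CPM (0.44 ± 0.07, adjusted p = 0.00119). For APS1 the Col-0 libraries were the lowest of the 18, while for ATSDI1 and LSU3 both groups lay within the range of the other lines, 7.80 to 36.9 CPM and 1.26 to 7.87 CPM.

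**Figure D4:**
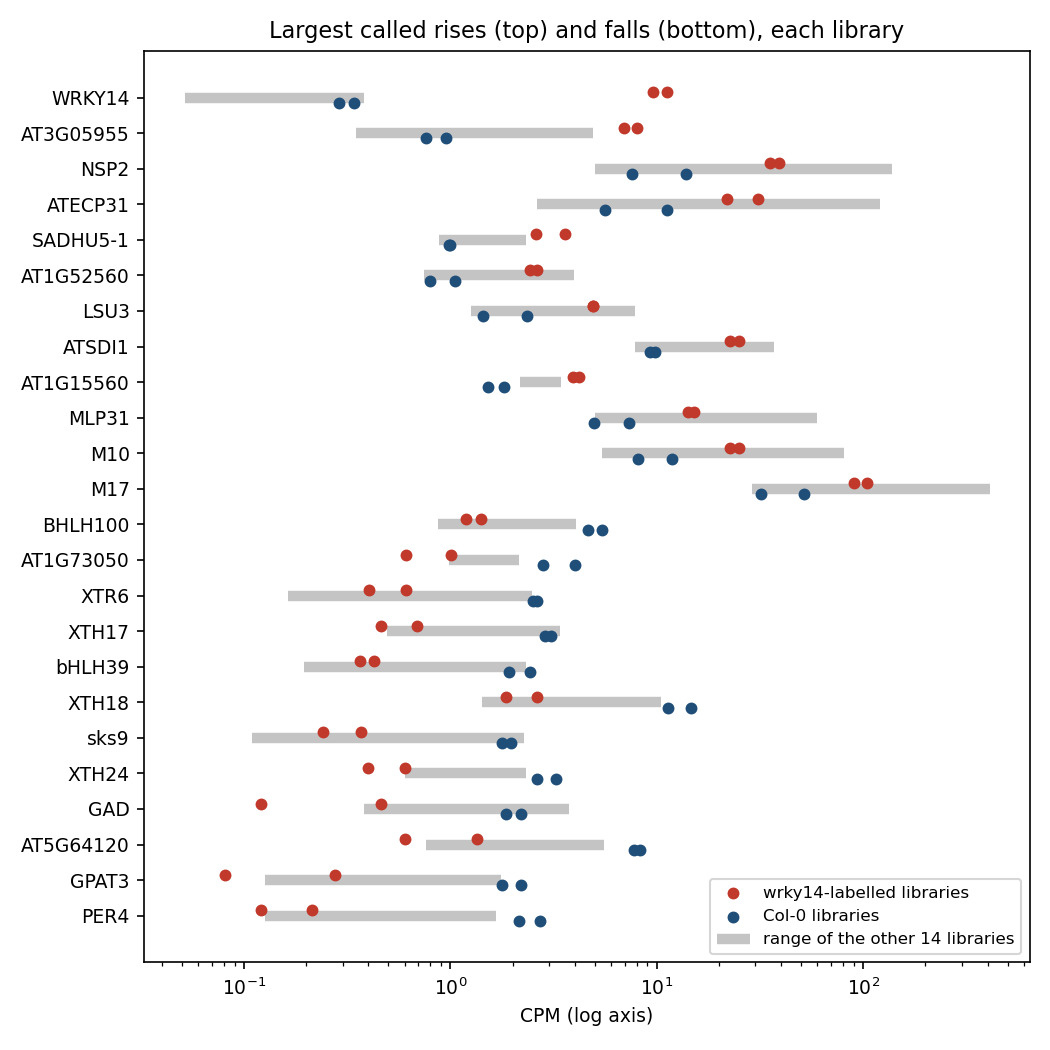
CPM on a log axis of the 12 called genes with the largest rises (top) and the 12 with the largest falls (bottom), with red points for the wrky14-labelled libraries, blue points for the Col-0 libraries and a grey bar from the lowest to the highest of the other 14 libraries. WRKY14, AT3G05955, SADHU5-1 and AT1G15560 have both red points right of the grey bar. For XTH18, XTH24, XTR6, PER4, AT5G64120, GPAT3, AT1G73050 and BHLH100 both blue points lie right of it.

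The most abundant called genes changed by smaller amounts. LCR67, a plant defensin gene expressed in seed, had 868 and 976 CPM in wrky14-labelled seed, against 464 and 456 CPM in Col-0 (1.00 ± 0.11, adjusted p = 4.00e-05). The other lines ran from 380.0 to 2022 CPM. TGG1, a myrosinase that hydrolyses glucosinolates, had 173 and 166 CPM, against 206 and 218 CPM (-0.32 ± 0.06, adjusted p = 0.00707). AGAL2, an alpha-galactosidase, fell by 0.57 (± 0.10, adjusted p = 0.00289), AT5G12950, a gene for a protein of the DUF1680 family, by 0.55 (± 0.10, adjusted p = 0.00357) and AT3G09440, a cytosolic HSP70 chaperone, by 0.36 (± 0.06, adjusted p = 0.00216). In AT3G09440 the Col-0 libraries, at 402 and 398 CPM, were the highest of all 18, and the wrky14-labelled libraries, at 312 and 309 CPM, were within the 288 to 329 CPM of the other lines.

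Of the 48 genes the naming rule gave, 15 were called in each of the 4 fits that left out 1 library, namely WRKY14, AT3G05955, ATSDI1, FER1 and LCR67 among the higher ones and PER4, GPAT3, AT5G64120, AT5G64100, XTH18, XTH24, BHLH100, AT1G47395, FRO3 and WRKY33 among the lower ones. The other 33 kept their direction but missed the threshold in at least 1 of these fits. Without wrky14 replicate 1 or 2, 28 or 27 of the calls were lost, and without Col-0 replicate 1 or 2, 22 or 29. NSP2, ATECP31 and M10 were among those called in no such fit, with adjusted p up to 0.116, 0.132 and 0.0958, and so were GAD, sks9, XTH17 and XTR6, with adjusted p up to 0.0658, 0.0216, 0.0537 and 0.0315.

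Iron genes formed the list with the most calls. Of its 24 members 20 passed the count filter, 1 was called higher, 9 were called lower and the median was -0.51 on the log2 scale, against 0.00 over all tested genes, of which 0.246% were called higher and 0.911% lower. The 10 calls became 4 or 7 without wrky14 replicate 1 or 2, and 6 without either Col-0 library. Counts and medians of this and the other lists are descriptions of members chosen with earlier results known. The lowered genes are known for the response to iron shortage. bHLH38, bHLH39 and BHLH100 are transcription factors that switch on iron uptake. BHLH100 had 1.19 and 1.41 CPM in wrky14-labelled seed, against 5.44 and 4.62 CPM in Col-0 (-1.95 ± 0.24, adjusted p = 1.17e-04). bHLH39 had 0.428 and 0.363 CPM, against 2.44 and 1.93 CPM (-2.42 ± 0.37, adjusted p = 0.00116), and bHLH38 had 4 and 6 counts, against 24 and 24 (-2.51 ± 0.40, adjusted p = 0.00145). The fourth gene of this subgroup, BHLH101, had a fitted value of -2.36 ± 0.51 and did not pass (adjusted p = 0.0133). FRU (FIT), their partner in uptake control, had 1.44 and 1.57 CPM in wrky14-labelled seed, against 1.53 and 1.14 CPM in Col-0, and the uptake transporter IRT1 had 0 counts in all 18 libraries.

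AT1G47400 and AT1G47395, which encode the small IRONMAN peptides that signal iron shortage, fell by 1.05 (± 0.20, adjusted p = 0.00528) and 1.22 (± 0.15, adjusted p = 1.24e-04), and as similar neighbours they make the split of reads between them uncertain. FRO3, a mitochondrial ferric reductase, had 65.2 and 64.2 CPM in wrky14-labelled seed, against 96.1 and 96.3 CPM in Col-0 (-0.57 ± 0.06, adjusted p = 2.27e-05). BTS, a ubiquitin ligase that restrains the iron response, fell by 0.48 (± 0.07, adjusted p = 9.35e-04). OPT3, which loads iron into the phloem, had 57.0 and 59.8 CPM, against 82.9 and 87.8 CPM (-0.55 ± 0.08, adjusted p = 4.24e-04), and here the wrky14-labelled libraries were the lowest of the 18. NAS4, a nicotianamine synthase that makes a metal chelator, fell by 1.19 (± 0.24, adjusted p = 0.00827). The member called higher was FER1, a chloroplast ferritin that stores iron, with 56.0 and 44.9 CPM in wrky14-labelled seed, against 24.4 and 29.7 CPM in Col-0 (0.90 ± 0.12, adjusted p = 3.09e-04). The other ferritins had fitted values of 0.45 (FER2), 0.32 (FER3) and 0.57 (FER4), with adjusted p from 0.0217 to 0.0766. Over the tested iron genes, both Col-0 libraries were outside the range of the other 16 for 5 genes (BHLH100, bHLH38, AT1G47395, FRO3 and NAS4) and both wrky14-labelled libraries for 2 (OPT3 and FER1). Against the mean of the other 7 lines only FER1 was called, the list's median was -0.27, and BHLH100, bHLH39 and bHLH38 had -0.42, -0.78 and -0.67 (adjusted p = 0.395, 0.331 and 0.498).

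Storage proteins and oil body proteins are laid down as the seed matures and used up after germination. Of 16 storage protein and oil body genes, all tested, 1 was called higher and 0 lower, where 0.246% of all tested genes were called higher. An unadjusted p under 0.05 in edgeR, in either direction, was reached by 11, and by 2995 of all 19100 tested genes. The median was 0.54, with 13 fitted values above 0. SESA4, a 2S albumin, had 55.7 and 62.3 CPM in wrky14-labelled seed, against 40.9 and 27.0 CPM in Col-0 (0.80 ± 0.15, adjusted p = 0.00535). CRA1, a cruciferin and the most abundant of them, had 2040 and 1526 CPM, against 1072 and 936 CPM, and did not pass (adjusted p = 0.0480). The summed level of the list was 4082 and 3322 CPM in wrky14-labelled seed, against 2419 and 2017 CPM in Col-0, within the 1008 to 12774 CPM of the other lines. Of 18 LEA genes, 3 were called higher (ATECP31, M10 and M17) and 0 lower, with a median of -0.09. Fitted values were above 0 for 8 and below 0 for 10, and 10 had an unadjusted p under 0.05 in edgeR, rises and falls together. With 1 library left out, M17 was called in 1 of the 4 fits and ATECP31 and M10 in 0. SESA4 passed only without Col-0 replicate 1. AT3G15670, one of the highly expressed LEA members, had 854 and 738 CPM in wrky14-labelled seed, against 964 and 971 CPM in Col-0 (adjusted p = 0.186).

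Chaperone genes moved in both directions. Of 16 members 14 were tested, and the median was 0.96. Of these, 3 were called higher and 2 lower, where 0.246% and 0.911% of all tested genes were. The 5 calls became 1 or 0 without wrky14 replicate 1 or 2, and 2 or 0 without Col-0 replicate 1 or 2. AT1G53540, a small cytosolic heat shock protein, had 44 and 29 counts in wrky14-labelled libraries, against 3 and 5 in Col-0 (2.87 ± 0.58, adjusted p = 0.00893). HSP23.6-MITO, a mitochondrial one, had 1.81 and 1.17 CPM, against 0.525 and 0.114 CPM (2.33 ± 0.48, adjusted p = 0.00989). HSP101, the disaggregase needed for heat tolerance, had 8.60 and 9.52 CPM, against 5.87 and 4.81 CPM (0.77 ± 0.13, adjusted p = 0.00246). The lowered members were AT3G09440 and HSP70, both HSP70-type chaperones, and HSP70 had 65.1 and 56.6 CPM in wrky14-labelled seed, against 87.9 and 83.4 CPM in Col-0 (-0.49 ± 0.09, adjusted p = 0.00426). HSFA9, the seed heat shock factor, was 0.979 and 0.645 CPM, against 0.287 and 0.227 CPM, and did not pass (adjusted p = 0.186).

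Among the wall lists, 3 of 13 tested xyloglucan and mannan enzyme genes were lower and 0 higher, with a median of -0.28, and without any 1 of the 4 libraries only 1 call was left. Besides XTH18 these were TCH4, a touch-induced XTH, with 7.25 and 8.59 CPM in wrky14-labelled seed, against 14.1 and 12.5 CPM in Col-0 (-0.75 ± 0.14, adjusted p = 0.00454), and XTH33 (-1.55 ± 0.30, adjusted p = 0.00576). XTH24, XTH17 and XTR6 were not on the list. Beside this list and that of the peroxidases, 0.911% of all tested genes were called lower and 0.246% higher. Of 29 class III peroxidase genes only 7 passed the count filter, of which 3 were lower and 0 higher, with a median of -0.17 that turned positive without wrky14 replicate 2. AT5G64100 had 15.5 and 17.5 CPM in wrky14-labelled seed, against 39.7 and 37.5 CPM in Col-0 (-1.23 ± 0.13, adjusted p = 3.64e-05), and AT2G18980 fell by 1.03 (± 0.18, adjusted p = 0.00245). PRXR1, the most abundant peroxidase of the list, had 163 and 139 CPM, against 146 and 150.4 CPM (adjusted p = 0.912). For alpha-expansins, which loosen walls at low pH, 0 of 13 tested genes were called, 2 were called by DESeq2, and the median was 0.02. An unadjusted p under 0.05 in edgeR was reached by 6 of them and by 2995 of all 19100 tested genes. EXPA1 had 1424 and 1518 CPM in wrky14-labelled seed, against 1226 and 1203 CPM in Col-0 (adjusted p = 0.0365).

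WRKY and defence genes were mostly low in germinating seed. Of the 8 group IIe genes, all tested, WRKY14 was higher and the other 7 were not called, and the median was -0.33. Those 7 all had fitted values below 0. An unadjusted p under 0.05 in edgeR was reached by 6 of the 8, WRKY14 included, and by 2995 of all 19100 tested genes. WRKY65 had 6.27 and 5.16 CPM in wrky14-labelled seed, against 8.84 and 8.37 CPM in Col-0 (adjusted p = 0.0334). WRKY29 had 1.01 and 1.01 CPM, against 2.87 and 1.82 CPM (adjusted p = 0.0329). WRKY35 had 3 and 3 counts, against 9 and 5. Of 16 defence genes 6 were tested, and 3 of these had an unadjusted p under 0.05 in edgeR. Of the 6, 1 was called lower, where 0.911% of all tested genes were, and 0 were higher, with a median of -0.94. That gene was WRKY33, a regulator of camalexin synthesis and resistance to necrotrophic fungi. It had 3.15 and 2.70 CPM in wrky14-labelled seed, against 8.17 and 7.92 CPM in Col-0 (-1.45 ± 0.15, adjusted p = 2.91e-05). The other lines lay between, from 3.51 to 6.28 CPM, so the 2 groups held the ends of the whole series. WRKY33, FRO3, FER1, bHLH38, HSP101, AGAL2 and AT3G09440 overlap annotated neighbours, and whether reads were assigned by strand is not given in the sources used here, so reads of such pairs cannot be told apart.

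Lists of the germination programme held no call. Of 20 tested gibberellin genes, 18 abscisic acid genes, 22 DNA replication and cell cycle genes, 19 light harvesting and Rubisco genes, 18 lipid breakdown genes, 10 morning and 10 evening clock genes, 0 passed in either direction in edgeR or DESeq2. At an unadjusted p under 0.05 in edgeR there were 2, 2, 11, 1, 2, 2 and 1 genes, in that order. Over all 19100 tested genes there were 2995. Median fitted values were 0.07 for gibberellin, -0.02 for abscisic acid, 0.05 for light harvesting and Rubisco, 0.06 for lipid breakdown, 0.07 for morning and -0.01 for evening clock genes. The hormone genes were close between groups. RGL2, the DELLA protein that represses germination until gibberellin removes it, had 254 and 266 CPM in wrky14-labelled seed, against 258 and 258 CPM in Col-0, and ABI5, a bZIP factor that holds back germination, had 132 and 109 CPM, against 141 and 125 CPM. GA20OX1, of gibberellin synthesis, had 19.3 and 19.0 CPM, against 14.2 and 15.5 CPM, and did not pass (adjusted p = 0.0238). All 22 cell cycle genes had fitted values below 0, with a median of -0.25. SYP111 (KNOLLE), which builds the division plate, had 2.14 and 0.927 CPM in wrky14-labelled seed, against 3.63 and 3.98 CPM in Col-0 (-1.25 ± 0.31, adjusted p = 0.0322). PCNA1, the replication clamp, had 23.4 and 23.9 CPM, against 24.0 and 24.7 CPM (adjusted p = 0.877).

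**Figure D5:**
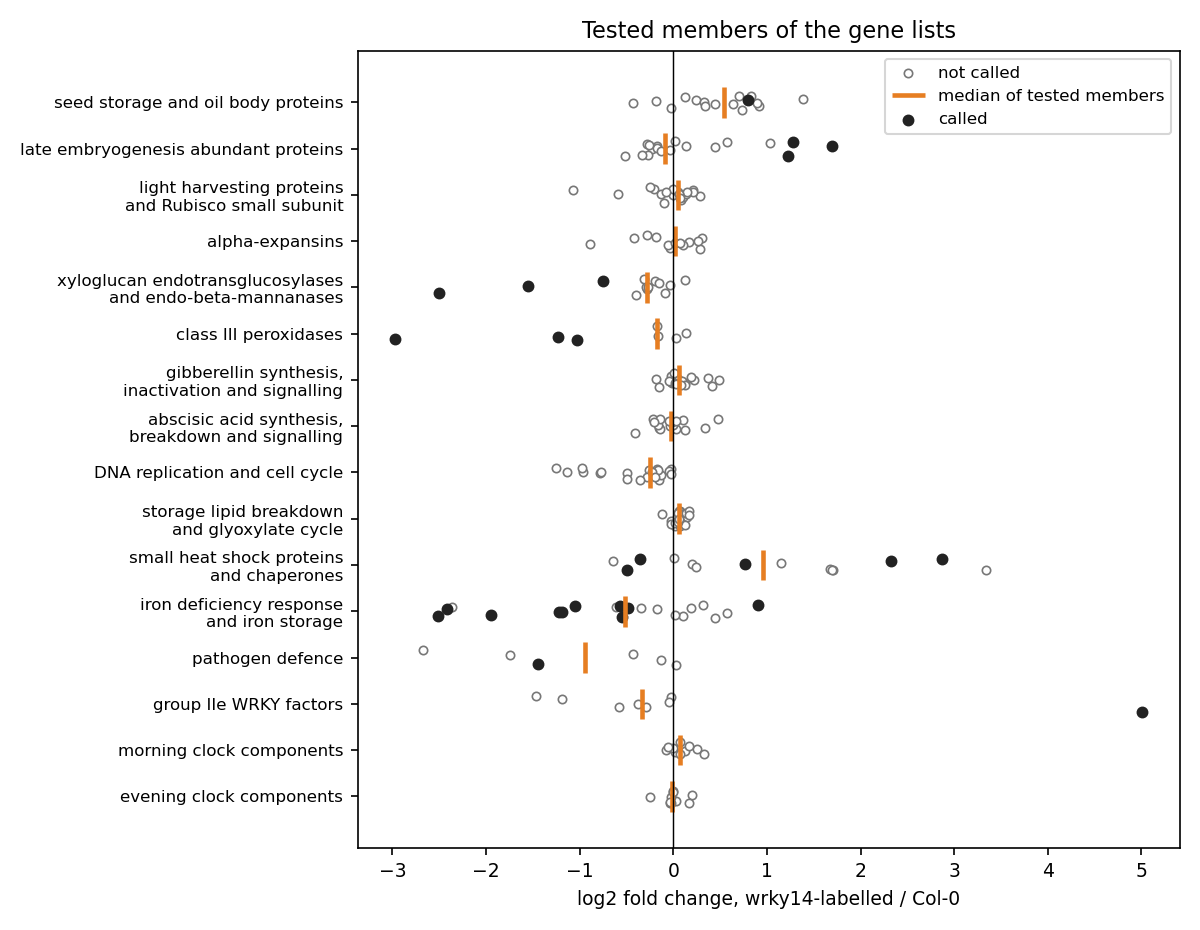
Fitted log2 fold change, wrky14-labelled over Col-0, of the tested members of each gene list, with filled points for called genes, open points for others and an orange bar at the list median. Iron genes have 9 called members left of 0 and 1 right of it, and the 22 cell cycle genes all lie left of 0 with none called.

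Setting the wrky14-labelled line against the mean of the other 7 lines, which leaves out the Col-0 libraries, asked which differences did not rest on Col-0. In that contrast 25 genes were called (0.131% of those tested), 15 higher and 10 lower, and without wrky14 replicate 1 or 2 the count was 9 or 8. Of the 221 genes called against Col-0, 19 were also called there, 9 of the 47 higher and 10 of the 174 lower by their direction against Col-0. Of these, 18 had the same direction in both contrasts. The contrasts share the wrky14-labelled libraries, so this count is not independent. AT2G43860, a pectin lyase-like gene named here as the exception, was -0.64 against Col-0 and 0.71 against the other lines (adjusted p = 0.00269). It had 16.9 and 22.3 CPM in wrky14-labelled seed, within the 0.253 to 36.8 CPM of single libraries of the other lines. This gene was also called higher against smb alone, so low levels in smb add to the 0.71. Its direction against the other lines without smb was not tested. WRKY14 was higher than in the other lines by 5.78 ± 0.16 (adjusted p = 1.42e-14) and AT3G05955 by 3.05 ± 0.14 (adjusted p = 6.19e-11). XTH18 and PER4, among the largest falls against Col-0, had -1.10 (adjusted p = 0.0151) and -1.94 (adjusted p = 0.0648) against the other lines and did not pass. The median fitted value of the 174 lowered genes was -0.85 against Col-0 and -0.33 against the other lines, and that of the 47 raised genes was 1.00 and 0.28.

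Genes lower than the mean of the other 7 lines included a beta-glucosidase, and the 5 genes of this paragraph were chosen after their values were seen. BGLU21, a scopolin-cleaving beta-glucosidase, had 63.5 and 55.2 CPM in wrky14-labelled seed, against 109 and 107 CPM in Col-0, and was lower than the other lines by 0.84 on the log2 scale (-0.84 ± 0.10, adjusted p = 5.46e-04). CSLD5, a cellulose synthase-like gene active at cell division, had 2.94 and 2.50 CPM, against 6.59 and 6.03 CPM in Col-0, and -0.69 ± 0.11 against the other lines (adjusted p = 0.00629). CPK2, a calcium-dependent protein kinase gene that overlaps another gene, had 5.36 and 3.79 CPM, against 8.55 and 8.56 CPM in Col-0, and -0.65 ± 0.10 against the other lines (adjusted p = 0.00599). A neighbouring pair on chromosome 5 moved apart. AT5G26260, a TRAF-like gene, had 71.7 and 53.1 CPM in wrky14-labelled seed, against 136 and 134 CPM in Col-0 (-1.11 ± 0.15, adjusted p = 4.24e-04). AT5G26270, which overlaps another gene and has no described function, had 9.21 and 9.68 CPM, against 4.11 and 4.43 CPM (1.14 ± 0.14, adjusted p = 1.24e-04). Single libraries of the other lines ran from 46.0 to 177 CPM for BGLU21, 2.26 to 7.29 CPM for CSLD5 and 44.2 to 182 CPM for AT5G26260. Those ranges held both wrky14-labelled libraries. Against smb alone, CSLD5, CPK2 and AT5G26260 had 0.19, -0.25 and 0.13 and were not called, while AT5G26270 was called, at 0.76.

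The line was also set against athb15, the nearest one in earlier results, and smb, which like it had mostly falls against Col-0. Against athb15, 14 genes were called (0.0733% of those tested), 4 higher and 10 lower, with 9 or 8 left without wrky14 replicate 1 or 2. WRKY14, AT3G05955 and FER1 were among the higher ones, together with ATHB-15 itself, the gene the other line is named for. FER1 was higher than in athb15 by 0.83 (adjusted p = 0.00404). BGLU21, CSLD5, TGG1 and AT5G26260 were among the lower ones, at -0.83, -0.93, -0.39 and -1.07 on the log2 scale. Against smb, 42 genes were called (0.220% of those tested), 35 higher and 7 lower. SMB itself was higher in wrky14-labelled seed by 2.59 (adjusted p = 9.01e-09), and FSD1, an iron superoxide dismutase, by 0.80 (adjusted p = 0.00266). AT5G64100, the peroxidase that fell against Col-0, was higher than in smb by 1.00 (adjusted p = 0.00297). Neither contrast tells the wrky14-labelled line from a change in the other line.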

How the data were processed

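RNA-seq libraries were poly(A)-selected and made with a stranded kit. Per the labels and the study's methods, the authors trimmed reads with Trim Galore 0.4.2, aligned them to TAIR10 with HISAT2 2.0.5 and counted them per Araport11 gene with featureCounts 1.5.1. The deposited values are raw counts for 37336 genes in 18 libraries, of which 11015 had no count in any. The genotype came from the labels. The main test was edgeR 4.0.16 (R 4.3.3) with TMM scaling, its default count filter (19100 genes), 1 genotype model over all 18 libraries and the quasi-likelihood F test, with Benjamini-Hochberg adjustment over all genes tested and a call at an adjusted p under 0.01. This 1 model shares the estimate of spread over genotypes, with a biological coefficient of variation of 5.87%. CPM used the scaled library sizes, and SE was derived from the fold change and F. The scripts were tested on simulated data in which every gene had the same biological spread. That run does not give the error rate of calls in these libraries. The alternatives were other filters, scaling and thresholds, DESeq2 1.42.0, the 4 libraries alone, a replicate block and leaving out each library.

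Genes were named by rule: WRKY14, the 12 largest rises and 12 largest falls among called genes that averaged 1 CPM or more and showed no overlap between wrky14-labelled and Col-0 libraries, the 6 most abundant called genes, every called list member, and called genes within 10 places of WRKY14. Members, lists and comparisons were chosen with earlier results of these data known. Promoter windows came from the RefSeq TAIR10.1 genome, where 99.5% of 37051 matched genes had the coordinates of the count table. Libraries are few and counts per gene show no isoforms, so precision rests on 2 libraries per genotype.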

Additional observations from a re-analysis of the deposited data

Results flagged for a closer look

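Genes called against Col-0 drew attention where the wrky14-labelled level also differed, by a test, from the mean of the other 7 lines. A difference from that mean is not a difference from each line. Of the 19 such genes, 9 higher and 10 lower against Col-0, only those named by rule are given here, all of them rises. By edgeR's quasi-likelihood test the log2 difference from the other lines was 5.78 for WRKY14 (adjusted p = 1.42e-14), 3.05 for AT3G05955 (adjusted p = 6.19e-11) and 1.15 for SADHU5-1 (adjusted p = 8.60e-04). WRKY14, AT3G05955 and SADHU5-1 were highest in both wrky14-labelled libraries of all 18. AT1G52560, a small heat shock-type chaperone gene, differed by 0.90 (adjusted p = 0.00629), SESA4, a 2S albumin, by 0.66 (adjusted p = 0.00629) and FER1, a ferritin, by 0.54 (adjusted p = 0.00599). AT1G52560 and SESA4 stayed within the range of other lines, which reached 3.99 and 107 CPM. Against smb alone, WRKY14 and AT3G05955 were called, at 5.51 and 4.06 on the log2 scale. SADHU5-1, AT1G52560, SESA4 and FER1 were not called against smb, at 0.86, -0.13, -0.43 and 0.24. FER1 had 56.0 and 44.9 CPM in wrky14-labelled seed, against at most 44.5 CPM in any other library, so its second library stood just above that value.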

How the results depend on the processing

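The direction of every named gene held under each alternative that gave it a value (455 values, of which 122 missed the threshold, mostly with 1 library left out), and the WRKY14 log2 fold change ran from 4.91 to 5.15 with 1 library left out. WRKY14 was not tested under the filter of a mean of at least 50 counts. Against Col-0, no count filter called 780 genes (284 higher, 496 lower), an adjusted p under 0.05 called 595 (159 higher, 436 lower), a log2 size of at least 1 called 95 (24 higher, 71 lower), and the 4 libraries alone called 76 higher. Leaving out 1 library gave 58 to 79 calls, 14 to 28 of them higher and 40 to 58 lower, in fits where the lone library was assumed to vary like the others. Against the other 7 lines, the calls were 372 with no filter, 13 with at least 50 counts, 74 with DESeq2, 117 at 0.05, 5 with a log2 size of at least 1 and 8 to 9 without 1 wrky14-labelled library. Against athb15 they were 287, 41 with DESeq2, 48 at 0.05, 7 by size and 8 to 9 without 1 library. Against smb they were 224 with no filter and 27 with at least 50 counts. Prior degrees of freedom were infinite with no filter, against 9.57 in the main fit and 8.31 with at least 50 counts. With no filter, each gene's own spread thus did not enter the test. The cause of these shifts was not tested. Of 210 list medians, 38 moved and 13 changed sign, among markers, class III peroxidases and lists with medians near 0.

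Replicate numbers were shared by all genotypes. Deviations of the first wrky14-labelled and first Col-0 library from their genotype means correlated at 0.104. With the other lines the values ran from -0.125 (hat2) to 0.194 (vnd2). With 2 libraries per genotype the second deviations mirror the first, so each value is a single comparison and cannot show that no batch was shared. Same-numbered libraries were not treated as pairs in the main test. With a replicate block, 201 genes were called against Col-0 (43 higher, 158 lower), 25 against the other lines, 12 against athb15 and 36 against smb. Depth limits genes such as PER4 and GPAT3, with 2 to 9 counts in wrky14-labelled libraries.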

Other observations

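Of 19 sulfate genes, a list put together after its members' values had been seen and so given no test, 16 passed the count filter, 5 were called higher in the wrky14-labelled line and 0 lower, with a median log2 fold change of 0.43. Over all tested genes 0.246% were called higher and 0.911% lower, and since the members were chosen on their values, nothing is read from the difference for this and the 2 following lists. Beside ATSDI1, LSU3 and APS1 these were SIR, the sulfite reductase, with 171 and 184 CPM in wrky14-labelled seed, against 131 and 127 CPM in Col-0 (0.46 ± 0.07, adjusted p = 0.00125), and APR1, an adenosine phosphosulfate reductase, with 29.3 and 31.8 CPM, against 19.8 and 18.8 CPM (0.66 ± 0.12, adjusted p = 0.00448). LSU1 had 27 and 27 counts in wrky14-labelled libraries, against 6 and 5 in Col-0, and did not pass (adjusted p = 0.0334). Against the other 7 lines the list's median was 0.09 and 0 were called. The 5 calls against Col-0 became 3 or 2 without wrky14 replicate 1 or 2, and 2 or 1 without Col-0 replicate 1 or 2.

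Nucleotide sugar genes, chosen in the same way, make the precursors of wall polysaccharides. Of 18 tested, 6 were called lower, where 0.911% of all tested genes were, and 0 higher, with a median of -0.23. UGD2, a UDP-glucose dehydrogenase, had 78.4 and 78.2 CPM in wrky14-labelled seed, against 99.8 and 98.8 CPM in Col-0 (-0.34 ± 0.06, adjusted p = 0.00216), and the Col-0 libraries were above the 75.0 to 85.8 CPM of the other lines. These 6 calls became 0 without either wrky14-labelled library, and 2 or 0 without Col-0 replicate 1 or 2. Another list of this kind held beta-glucosidases and jacalin lectins linked to the endoplasmic reticulum bodies of seedlings. Of 14 tested, 5 were called lower and 0 higher, with a median of -0.36. Its members BGLU21 and BGLU22 were also lower than the mean of the other 7 lines. Single libraries of those lines went as low as 46.0 CPM for BGLU21 and 29.8 CPM for BGLU22, below both wrky14-labelled libraries. The 5 calls became 3 or 0 without wrky14 replicate 1 or 2, and 1 or 2 without Col-0 replicate 1 or 2.

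AT4G09455, a pseudogene chosen after its values were seen, had 16 and 18 counts in the wrky14-labelled libraries, against 0 and 0 in Col-0. Against a floor of 3 counts per Col-0 library, or 0.143 CPM, it was at least 4.24-fold higher. Other lines reached 4.84 CPM.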
